A study of Mus musculus with 54 samples.

Results

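Choroid plexus genes were followed array by array in 3 brain tissues of 6 inbred mouse strains. The genes listed were Ttr, Folr1, Clic6, Aqp1, Kl, Enpp2, Slc4a5, Otx2 and F5. They were taken by symbol through the platform annotation, which gave 14 probe sets to 8 of the 9, out of 45101 probe sets and 18193 named genes, and Enpp2 was not analysed here. Each gene was represented by the probe set with the highest mean over the 54 arrays.

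The data were Affymetrix mouse 3' expression arrays from male mice killed at postnatal day 60, in a study whose title names Pdxdc1 and prepulse inhibition, the damping of a startle response by a weaker sound that comes first. Mice came from the inbred strains C57L/J, C57BLKS/J, C57BL10/J, BalbC/J, C3H HeJ and C57BL6/J, and no mouse carried an engineered allele or received a drug as far as the labels say. For each strain the whole hippocampus, striatum and brainstem had 3 arrays each, 1 from mice tested for prepulse inhibition at postnatal day 50 and 2 from untested mice, called untested 1 and 2. Every array carried pooled RNA of 3 mice, so an array shows the pool and not the animal, and the 12 mice of a strain were too few for the tissues not to share animals.

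The choroid plexus is a sheet of secretory epithelium inside the brain ventricles that makes cerebrospinal fluid and holds the barrier between blood and that fluid. Fronds of it lie in the lateral ventricles, beside the hippocampus and the striatum, and in the fourth ventricle, over the brainstem. Its cells make transthyretin in very large amounts and carry sets of transporters and channels that neurons and glia of these tissues mostly lack. In pooled tissue, fewer cells of a type and less RNA per cell cannot be told apart.

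The members were described by role, with gene positions from RefSeq on GRCm38.p6. Ttr encodes transthyretin, the carrier of thyroxine and of retinol-binding protein. Folr1 (chromosome 7, 101858331 to 101870788) encodes the folate receptor that moves folate across the epithelium into the fluid. Kl (chromosome 5, 150952607 to 150993817) encodes klotho, a co-receptor for FGF23. Slc4a5 (chromosome 6, 83207580 to 83304945) encodes a sodium bicarbonate cotransporter. Aqp1 (chromosome 6, 55336299 to 55348555) encodes a water channel, and Clic6 (chromosome 16, 92498147 to 92541241) a member of the chloride intracellular channel family. Otx2 (chromosome 14, 48656781 to 48667644) encodes a homeodomain transcription factor required for choroid plexus development, and F5 (chromosome 1, 164151835 to 164220277) encodes coagulation factor V. The annotation gives a gene for a probe set and not the exon or untranslated region it reads.

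The 250 bases before the start of 4 members are shown, as RefSeq gives them on GRCm38.p6, all on the plus strand. Whether these windows bear on the members' levels was not tested. They lie at chr1:164151585-164151834 for F5, chr5:150952357-150952606 for Kl, chr6:55336049-55336298 for Aqp1 and chr6:83237125-83237374 for Slc4a5, the last before a start that RefSeq's promoter table gives inside the gene's span. Capitals mark matches on either strand to a GC box (GGGCGG) or a TATA box (TATAAA), and the OTX core (TAATCC) was searched as well. No matches overlapped.
F5: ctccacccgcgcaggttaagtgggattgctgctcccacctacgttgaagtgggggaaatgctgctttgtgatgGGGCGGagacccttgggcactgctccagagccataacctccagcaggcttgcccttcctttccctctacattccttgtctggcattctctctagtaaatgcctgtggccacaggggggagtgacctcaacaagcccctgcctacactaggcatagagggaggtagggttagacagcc
Kl: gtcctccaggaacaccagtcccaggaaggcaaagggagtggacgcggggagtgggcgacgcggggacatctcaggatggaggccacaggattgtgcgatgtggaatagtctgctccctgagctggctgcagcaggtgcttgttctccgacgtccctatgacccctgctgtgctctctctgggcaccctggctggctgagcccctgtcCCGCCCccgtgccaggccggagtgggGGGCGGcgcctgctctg
Aqp1: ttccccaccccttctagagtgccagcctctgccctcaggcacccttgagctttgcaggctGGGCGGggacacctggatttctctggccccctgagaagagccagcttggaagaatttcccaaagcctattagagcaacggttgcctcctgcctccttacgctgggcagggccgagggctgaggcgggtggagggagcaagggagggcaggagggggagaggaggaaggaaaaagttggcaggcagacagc
Slc4a5: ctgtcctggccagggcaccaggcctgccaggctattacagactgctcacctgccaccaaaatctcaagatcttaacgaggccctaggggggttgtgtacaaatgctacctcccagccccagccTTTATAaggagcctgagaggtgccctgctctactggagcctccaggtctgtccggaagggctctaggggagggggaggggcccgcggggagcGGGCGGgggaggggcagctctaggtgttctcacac
The GC box was matched once in the windows of F5, Aqp1 and Slc4a5 and at 2 places in that of Kl, and 32.7% of all 32851 windows of this length hold it. A TATA box was matched in the Slc4a5 window, as in 12.4% of all windows. The OTX core was in none of the 4 windows, against 6.25% of all windows, and in 1 of 4 Otx2 windows, which are not printed. No Otx2 window matched the GC box. These are matches of letters and not sites shown to be bound.

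All values are log2 levels per probe set as the authors deposited them, and ran between -0.2 and 16.89 over the file. Medians of the arrays lay between 4.53 and 4.72 in hippocampus, 4.17 and 4.31 in striatum, and for brainstem 4.43 and 4.57. The 3' minus 5' difference of the Gapdh control, which widens as RNA breaks down, lay between 0.10 and 0.23 in hippocampus, 0.12 and 0.40 in striatum, and for brainstem -0.02 and 0.20. Tests took in a tissue the genes that stood above the array's 40th percentile on 3 or more of the 18 arrays, and 6 of the 8 members passed in hippocampus and in striatum, and 8 did in the brainstem. One brainstem array stood apart. On the C3H HeJ untested 2 array, 8 cerebellar genes averaged 4.37 above their median over the brainstem arrays, where the other 17 arrays lay between -1.18 and 1.19, so the members' brainstem tests are also given without it.

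In the hippocampus the choroid plexus genes stood high on some arrays and low on others of the same strain. Values are given for the tested, the untested 1 and the untested 2 array of each strain in turn. Ttr had levels of 16.14, 14.83 and 11.35 in C3H HeJ, 14.11, 16.16 and 12.93 in BalbC/J, 12.67, 16.20 and 16.25 in C57BL10/J, 12.44, 11.18 and 16.11 in C57BLKS/J, 11.62, 16.06 and 16.17 in C57L/J, and 13.44, 12.85 and 15.52 in C57BL6/J. The 3 arrays of a strain lay between 2.67 and 4.93 apart, which at its widest, in C57BLKS/J, is 30.5-fold (34.9, 54.3 and 78.0-fold on the same arrays by the other 3 Ttr probe sets), while the 6 strain means spanned 1.80. Every strain held at least 1 array with Ttr above 15 and 1 below 14.

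Folr1 showed the same arrays more sharply. Its levels were 7.85, 3.35 and 2.87 in C3H HeJ, 2.82, 8.14 and 3.12 in BalbC/J, 2.88, 8.47 and 7.81 in C57BL10/J, 2.80, 3.28 and 8.004 in C57BLKS/J, 2.58, 7.92 and 8.004 in C57L/J, and 2.73, 2.74 and 5.00 in C57BL6/J. Thus 7 arrays lay at 7.81 or above, 1 at 5.00 and 10 at 3.35 or below, with a widest gap of 2.82. Kl and F5 had the same 8 arrays above their own widest gaps, and all 7 of the high Folr1 arrays were among those 8. The eighth was the C57BL6/J untested 2 array, on which Folr1 stood at 5.00. These 8 arrays held 1 of the 6 tested pools and 7 of the 12 untested pools, and every one of the 6 strains had arrays on both sides.

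The members differed in how low they stood on the low arrays. Kl stayed at 6.09 or above on all 18 hippocampal arrays and reached 9.46, and was above the 40th percentile on all of them. F5 lay between 2.53 and 2.73 on its 10 low arrays and between 4.15 and 6.40 on its 8 high ones. Clic6 spanned 4.07 to 7.72 with a median of 5.78. Aqp1 had a median of 2.31 and passed the 40th percentile on 4 arrays, the C57BL10/J untested 1 and 2 arrays at 4.92 and 4.26, the C57L/J untested 2 array at 4.26 and the BalbC/J untested 1 array at 3.74. Slc4a5 passed it on 2, the same C57BL10/J pair, at 4.15 and 3.54. Otx2 passed it on none and reached 3.10.

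**Figure D1:**
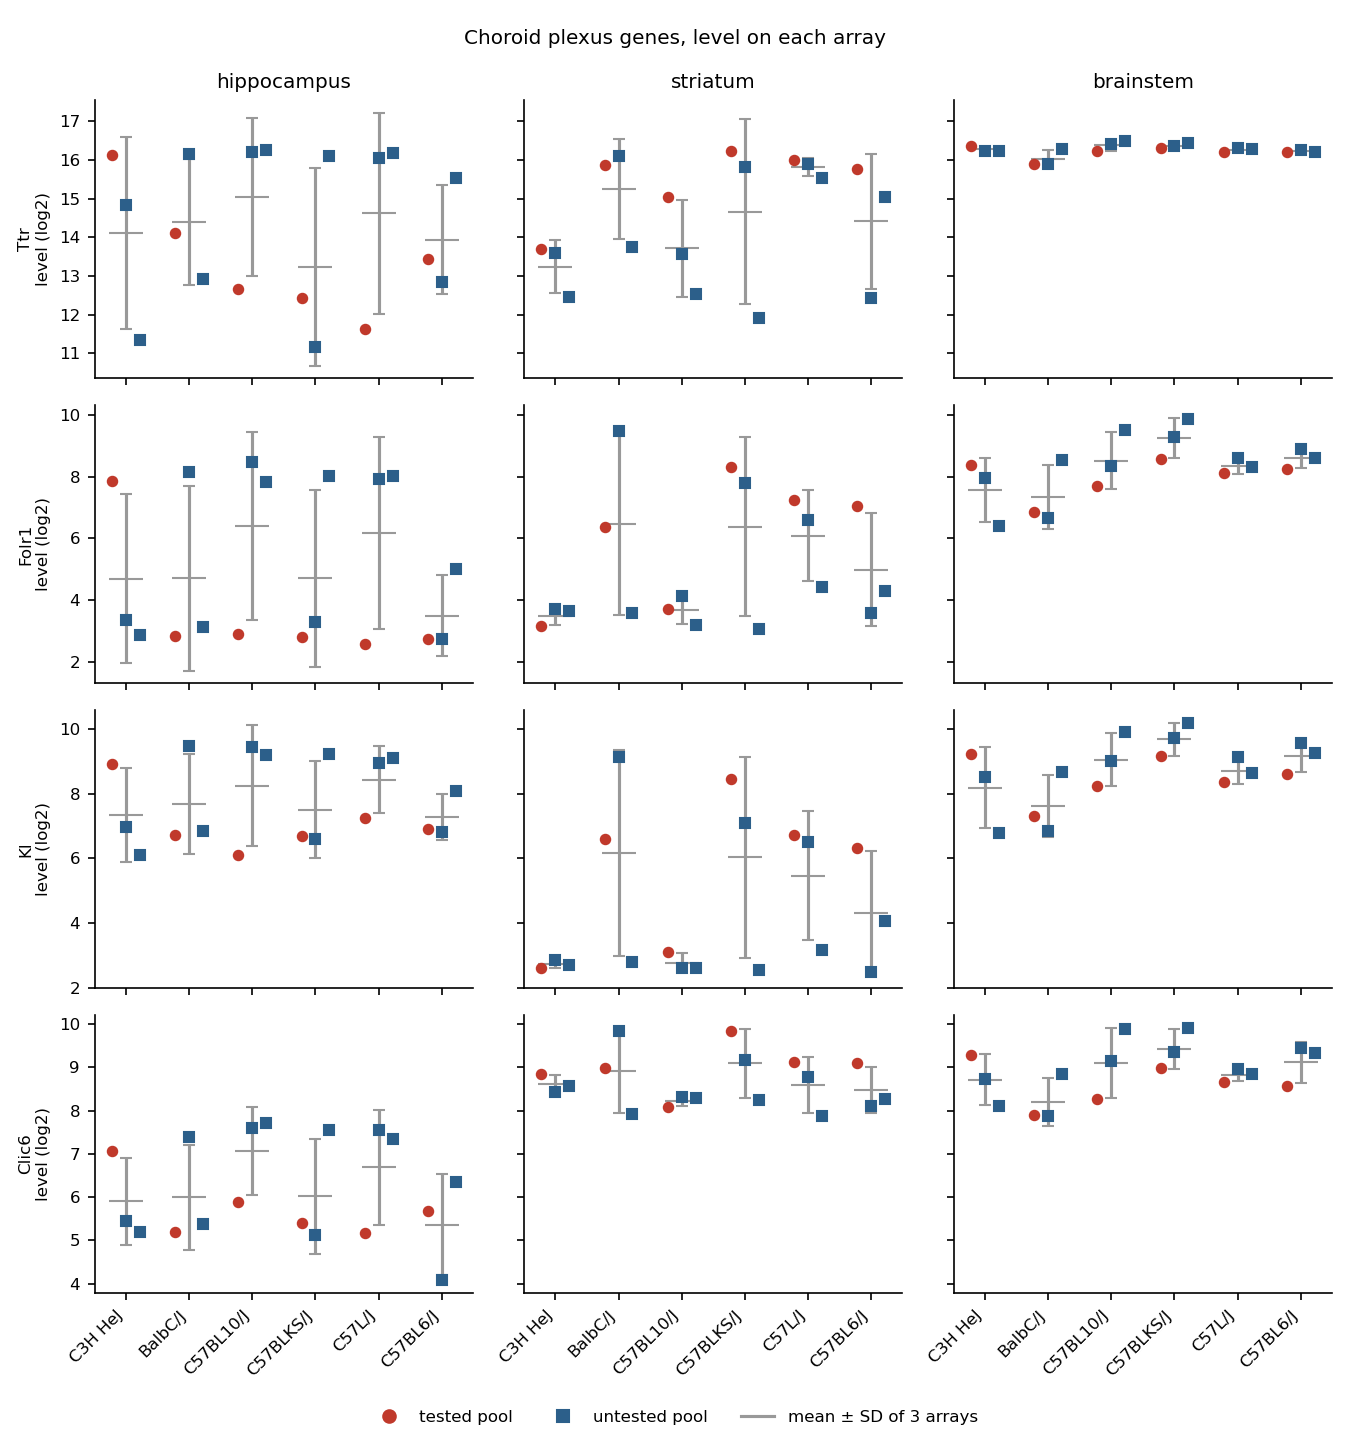
Level on the log2 scale (vertical axis) of Ttr, Folr1, Kl and Clic6 on each array, by strain (horizontal axis) and tissue, with red circles for tested pools, blue squares for untested pools and grey bars for the mean ± SD of 3 arrays. Folr1 arrays of one strain lie up to 5.59 apart in hippocampus and 5.90 in striatum, while Ttr spans 0.60 over all 18 brainstem arrays.

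The high arrays of the striatum were not the same set, although BalbC/J untested 1 and C57L/J untested 1 were high in both tissues, and the labels do not say which pools of different tissues hold the same mice. Ttr had levels of 13.70, 13.59 and 12.45 in C3H HeJ, 15.87, 16.11 and 13.75 in BalbC/J, 15.04, 13.58 and 12.52 in C57BL10/J, 16.24, 15.82 and 11.91 in C57BLKS/J, 15.995, 15.89 and 15.55 in C57L/J, and 15.76, 12.44 and 15.04 in C57BL6/J. Folr1 had levels of 3.14, 3.70 and 3.63 in C3H HeJ, 6.36, 9.48 and 3.58 in BalbC/J, 3.69, 4.13 and 3.19 in C57BL10/J, 8.30, 7.79 and 3.04 in C57BLKS/J, 7.24, 6.58 and 4.43 in C57L/J, and 7.05, 3.58 and 4.30 in C57BL6/J. In all 7 arrays stood at 6.36 or above and 11 at 4.43 or below. The same 7 arrays were above the widest gap of Kl, at 6.33 or more against 4.08 or less, and the 5 high F5 arrays were among them.

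Of these 7 striatal arrays, 4 were among the 6 tested pools and 3 among the 12 untested pools. C57L/J, C57BLKS/J, BalbC/J and C57BL6/J had arrays on both sides, and no C3H HeJ or C57BL10/J array was high. Kl had its lowest striatal array at 2.51, where its lowest hippocampal array stood at 6.09. Clic6 did the opposite, with all 18 striatal arrays between 7.88 and 9.85, which is above the highest hippocampal array at 7.72. On the second Clic6 probe set the tissues overlapped, with 7.82 to 10.41 in striatum and 2.07 to 8.91 in hippocampus. Aqp1 passed the 40th percentile on 3 striatal arrays, led by the C57BLKS/J tested array at 5.21, Slc4a5 passed it on the BalbC/J untested 1 array alone, at 4.86, and Otx2 on none.

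**Figure D2:**
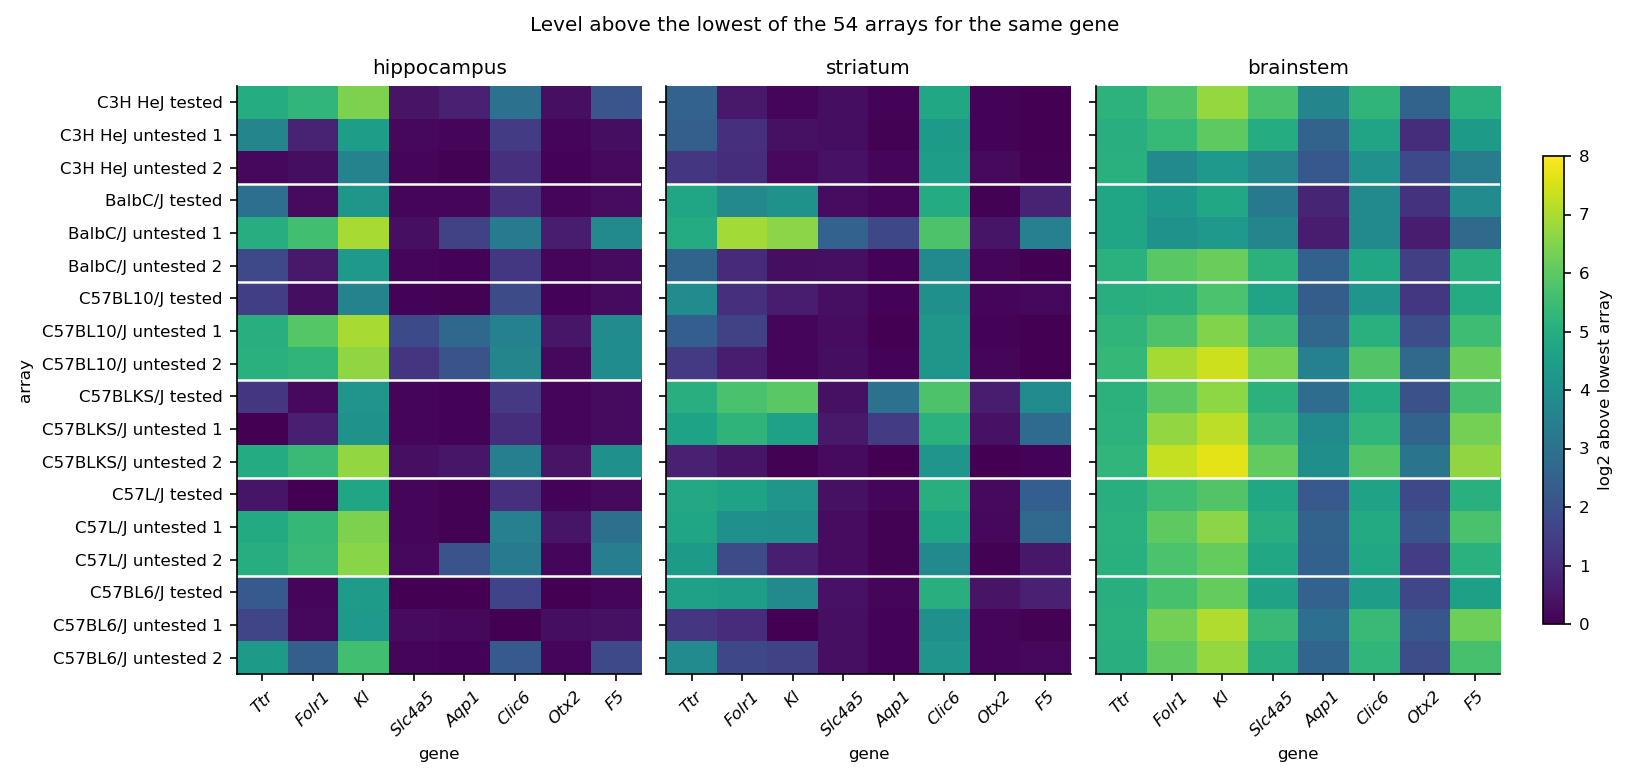
Level of each member above its own lowest array of the 54 (colour, log2 units from 0 to 8), with arrays as rows, grouped by strain, and genes as columns, in 3 panels by tissue. Bright and dark rows run across several genes in hippocampus and striatum, and in brainstem the darkest rows are the BalbC/J tested, BalbC/J untested 1 and C3H HeJ untested 2 arrays.

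In the brainstem 6 of the 8 members stood above the 40th percentile on all 18 arrays. Ttr lay between 15.90 and 16.50 with a median of 16.26, near the top of the file's scale. Folr1 had levels of 8.37, 7.94 and 6.39 in C3H HeJ, 6.84, 6.67 and 8.54 in BalbC/J, 7.71, 8.35 and 9.50 in C57BL10/J, 8.57, 9.29 and 9.88 in C57BLKS/J, 8.10, 8.61 and 8.32 in C57L/J, and 8.26, 8.89 and 8.62 in C57BL6/J. The lowest 3, BalbC/J tested, BalbC/J untested 1 and C3H HeJ untested 2, were also the lowest 3 of Kl and Slc4a5, each set apart by the widest gap of that gene. Slc4a5 ran between 5.57 and 8.71, Kl between 6.80 and 10.17, F5 between 5.16 and 9.05, Clic6 between 7.88 and 9.92, Aqp1 between 2.83 and 6.21 and Otx2 between 3.13 and 5.58. Otx2 passed the 40th percentile on 17 of the 18 arrays and Aqp1 on 16.

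Those 3 low arrays also had the highest mean deviations of the cerebellar list. The mean deviation of its 8 genes was 1.13 on the BalbC/J tested array, 1.19 on BalbC/J untested 1 and 4.37 on C3H HeJ untested 2, with the next highest at 0.90 on C57L/J tested. Gabra6, a GABA receptor subunit of cerebellar granule cells, reached 14.51 with a median of 9.11. The summed level of the list ran between 13.04 and 17.34 on the log2 scale. The lowest 3 deviations, -1.18, -0.96 and -0.93, were those of C57BLKS/J untested 1, C57BL6/J tested and C57BLKS/J untested 2. The 2 C57BLKS/J arrays were among the highest for Folr1, at 9.29 and 9.88. On the C57BL6/J tested array Folr1 stood at 8.26, below its brainstem median of 8.36. The part of cerebellar RNA in the members' differences was not tested.

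**Figure D3:**
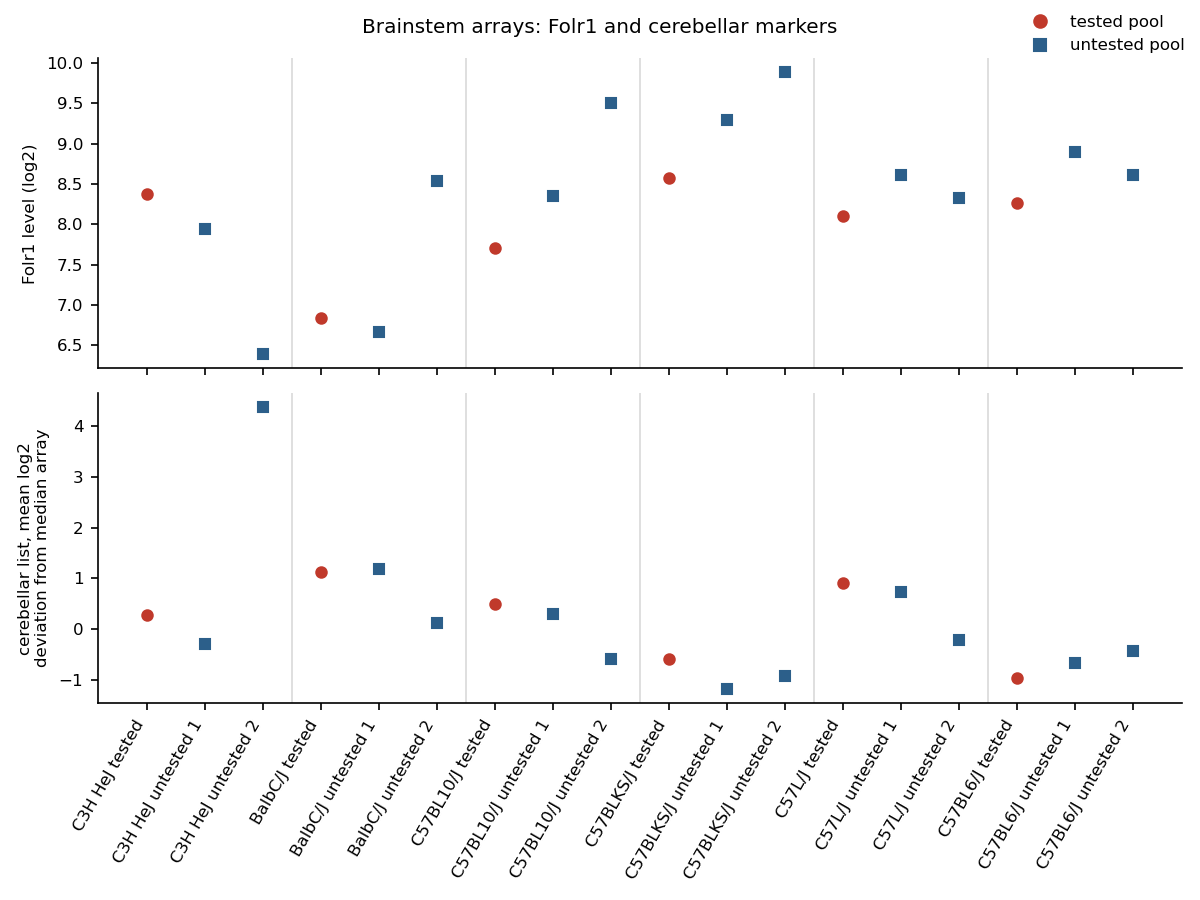
Brainstem arrays in strain order (horizontal axis), with the Folr1 level on the log2 scale above and, below, the mean log2 deviation of 8 cerebellar genes from their median array. The arrays with Folr1 at 6.39, 6.67 and 6.84 have cerebellar deviations of 4.37, 1.19 and 1.13.

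The spread between arrays of one strain placed the members among the most variable genes of the hippocampus and striatum. With strain and testing fitted, the residual SD in hippocampus was 2.58 for Folr1, the 3rd highest of 12315 genes, 2.14 for Ttr (7th), 1.57 for F5 (8th), 1.34 for Kl (10th), 1.17 for Clic6 (11th) and 0.78 for Aqp1 (29th), where the median gene had 0.11. In striatum it was 2.02 for Kl (5th of 12320), 1.92 for Folr1 (9th), 1.26 for Ttr (31st), 1.22 for F5 (35th), 0.73 for Aqp1 (144th) and 0.58 for Clic6 (244th), with a median gene at 0.15. Brainstem values were lower, from 0.80 for Kl (55th of 12484) to 0.51 for Clic6 (248th), and Ttr had 0.11, close to the median gene at 0.12. The other Ttr probe sets had wider brainstem ranges than the brightest, of 0.77, 0.73 and 1.30 against 0.60. Without the C3H HeJ untested 2 array, a setting chosen after seeing the data, the brainstem residual SD lay between 0.44 for Clic6 (83rd of 12475) and 0.70 for F5 (16th) in the 7 members other than Ttr, with Ttr at 0.11 and the median gene at 0.09.

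**Figure D4:**
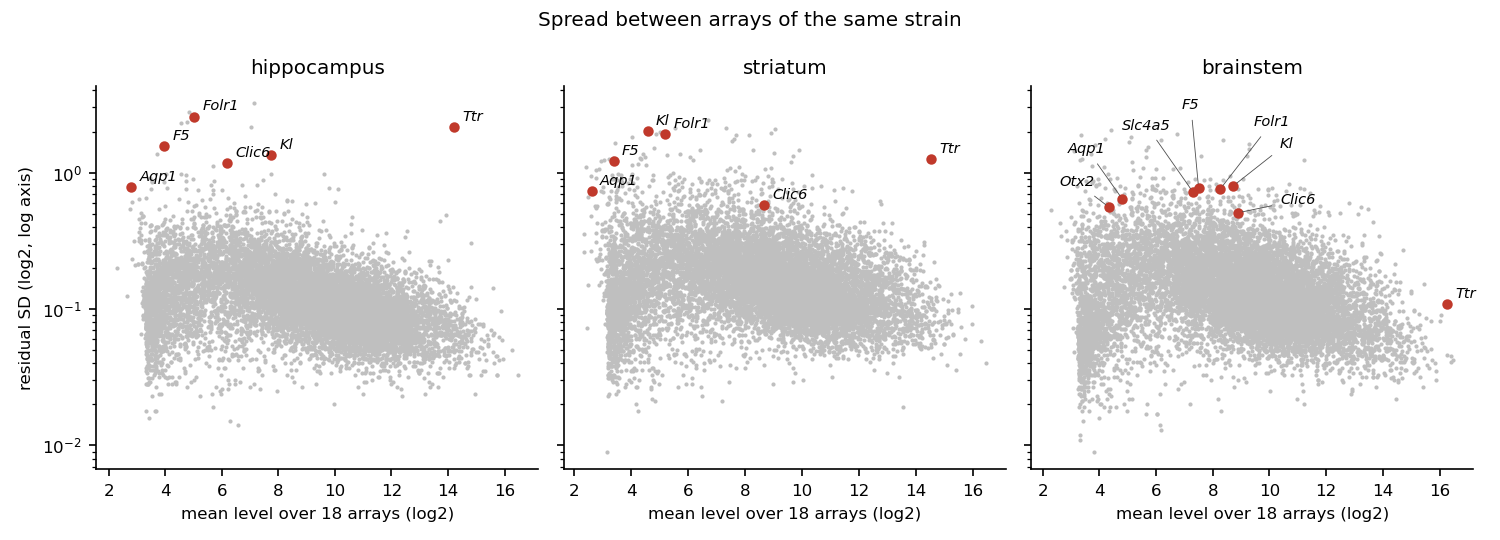
Residual SD on the log2 scale after fitting strain and testing (vertical log axis) against the mean level over 18 arrays (horizontal axis), with grey points for every gene tested and red points for the members. Folr1 has 2.58 and Ttr 2.14 in hippocampus, and Ttr drops to 0.11 in brainstem.

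Between strains, no member passed the 6-strain test in hippocampus or striatum and 3 did in brainstem. The test asked of each gene whether any of the 6 strain means differed (limma with a testing term, Benjamini-Hochberg adjusted p under 0.05). In hippocampus 0 of 6 members were called where 31.2% of all genes were, and the members' adjusted p lay between 0.241 and 0.905 although their strain means spanned 1.15 to 2.90, against a median of 0.27 over all genes. In striatum 0 of 6 were called where 26.2% of all genes were, with adjusted p between 0.182 and 0.552 and spans between 0.86 and 3.44. None of the members had an unadjusted p under 0.05 in either tissue. With 1 array left out, Aqp1 was called in hippocampus without C57BL10/J tested (adjusted p = 0.0466), and Aqp1 (0.0217) and F5 (0.0399) were called in striatum without C57BLKS/J untested 2. Aqp1 passed the 40th percentile on only 4 hippocampal and 3 striatal arrays, which included the arrays of those strains left in. Its calls here therefore cannot decide a strain difference. These misses do not show that the strains are alike, given the spread within them.

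In brainstem 3 of 8 members were called where 23% of all genes were. Ttr means spanned 0.36 (limma adjusted p = 0.0445), Aqp1 means 2.24 (adjusted p = 0.0423) and F5 means 2.32 (adjusted p = 0.0483). The lowest strain mean was that of BalbC/J for all 8 members, and the highest was that of C57BLKS/J for the 7 other than Ttr. Aqp1 averaged 3.52 in BalbC/J and 5.76 in C57BLKS/J, and F5 averaged 6.28 in BalbC/J and 8.60 in C57BLKS/J. Without the C3H HeJ untested 2 array 5 of 8 were called, Folr1 (adjusted p = 0.0456) and Kl (adjusted p = 0.021) being added, while 37.7% of all genes were called, 4701 in place of 2872. With the C3H HeJ tested array left out 7 of 8 were called, all but Otx2, where 22.9% of all genes were. Each of the 3 calls with all arrays in lay close to the threshold and was lost under other settings. Ttr kept its call only without a C3H HeJ array, BalbC/J untested 2 or C57BL10/J tested, and lost it without each of the other 13 arrays (adjusted p over the 18 between 0.00199 and 0.173). Aqp1 kept its call only without a C3H HeJ array, BalbC/J untested 2 or C57BLKS/J tested (0.00796 to 0.154), and F5 only without C3H HeJ tested, C3H HeJ untested 2, BalbC/J untested 2 or C57BL6/J tested (0.0148 to 0.107). Ttr also lost its call after quantile normalization (0.0773) or median centring (0.0575), with no filter (0.0565), with no intensity trend (0.0635) and on its second probe set (0.0858). Aqp1 lost it with no filter (0.0583), and F5 with no filter (0.0665), with no intensity trend (0.0539) and with the replicate number as a block (0.0632).

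Set against C57BL6/J, no member passed the test in any strain with all arrays in, and in brainstem 3 did in BalbC/J once the C3H HeJ untested 2 array was left out. The 6 members and 5 strains gave 30 pairs in hippocampus, of which 0 were called where 8.95% of all gene and strain pairs were, with 1 at an unadjusted limma p under 0.05 (Aqp1 in C57BL10/J, adjusted p = 0.11, or 0.0168 without the C57BL10/J tested array). Striatum gave 0 of 30 where 5.74% of all pairs were called, with 2 at an unadjusted p under 0.05 (Aqp1 and F5, both in C57BLKS/J, with adjusted p of 0.178 and 0.272). Without the C57BLKS/J untested 2 array that Aqp1 difference had an adjusted p of 0.0167. Aqp1 passed the 40th percentile on only 4 hippocampal and 3 striatal arrays. Among them were the hippocampal C57BL10/J untested 1 and 2 arrays and the striatal C57BLKS/J tested and untested 1 arrays. Leaving out the low array of the strain kept the arrays through which Aqp1 passed the filter, so these Aqp1 calls cannot decide a strain difference. Brainstem gave 0 of 40 where 7.47% of all pairs were called, with 6 at an unadjusted p under 0.05, all in BalbC/J. The 8 members were between 0.19 and 1.59 lower in BalbC/J than in C57BL6/J brainstem, with a median of -1.12 against 0.04 over all genes and adjusted p between 0.1 and 0.313. F5 was -1.59 (SE 0.57) and Kl -1.53 (SE 0.59). Without the C3H HeJ untested 2 array Kl (limma adjusted p = 0.0248), F5 (0.0456) and Aqp1 (0.0476) were called, 3 of 40 member pairs where 15.1% of all pairs were. Without BalbC/J untested 2, the BalbC/J array with the highest Folr1, the calls were Ttr (0.0121), Aqp1 (0.0166) and F5 (0.0465), 3 of 40 where 6.2% of all pairs were, and without C3H HeJ tested Aqp1 alone (0.0402). Of the 3 BalbC/J arrays in this comparison, 2 are those with raised cerebellar genes.

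Between tested and untested pools no member passed the test. In hippocampus 0 of 6 members were called and 0% of all genes, with adjusted p of 1 for each member. All 6 differences were negative, with a median of -1.10 against -0.005 over all genes. The members were read on the same pools and rose and fell together, so their shared sign does not count as 6 separate observations. Folr1 averaged 3.61 ± 2.08 in tested pools and 5.73 ± 2.504 in untested pools (SD, n = 6 and 12), a limma difference of -2.12 (SE 1.11), with the tested pool below the mean of its 2 untested pools in 5 of 6 strains, C3H HeJ being the exception. F5 had the smallest unadjusted p, 0.0362 in limma, at -1.56 (SE 0.68). Over all genes 488 had an unadjusted p under 0.05.

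In striatum 0 of 6 members and 0% of all genes were called. All 6 differences were positive, again not independently of each other, with a median of 0.85 against 0.006 over all genes. Ttr averaged 15.43 ± 0.94 in tested pools and 14.05 ± 1.55 in untested pools (SD, n = 6 and 12), a limma difference of 1.38 (SE 0.56, unadjusted p = 0.0277, adjusted p of 1), higher in 6 of 6 strains. The tested pool was higher in 5 of 6 strains for Clic6 and Kl, and in 4 of 6 for Folr1, Aqp1 and F5. For Folr1 the limma difference was 1.18 (SE 0.85, unadjusted p = 0.189). In brainstem 0 of 8 members and 0% of all genes were called, with differences between -0.44 and -0.08, a median of -0.38 and adjusted p of 0.986. Leaving out the C3H HeJ untested 2 array, 0 of 8 were called, with differences between -0.61 for Folr1 and -0.09 for Ttr and adjusted p between 0.681 and 0.931. The unadjusted counts over all genes were 467 in striatum and 281 in brainstem. Whether the testing difference itself differs between tissues was not tested.

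Across tissues, mean levels of the members were lowest in hippocampus or striatum and highest in brainstem. These comparisons rest on the 54 arrays, and tissues may have been normalized apart by the authors. Counts are over the 6 members that passed the filter in both tissues, a rule chosen after seeing the data. Between hippocampus and brainstem 6 of 6 were lower, where 45% of all genes tested and 44.8% of those that passed in both tissues were lower, and the median was -2.38 against -0.013 over those genes. Folr1 averaged 5.02 ± 2.53 in hippocampus and 8.27 ± 0.93 in brainstem, a difference of -3.25 (SE 0.60, adjusted p = 6.79e-06). Ttr averaged 14.23 ± 1.91 in hippocampus and 16.26 ± 0.15 in brainstem, a difference of -2.03 (SE 0.46, adjusted p = 0.000106), and as its brainstem level was near the top of the scale the other 3 probe sets are given, at -2.34, -2.32 and -2.63. Kl, at -0.98 (SE 0.47, adjusted p = 0.0497), was at the threshold, and lost its call without 36 of the 54 arrays and under 5 of 8 other settings. Without the C3H HeJ untested 2 array of brainstem it was -1.11 (adjusted p = 0.0278), and the other 5 kept their calls, with Folr1 at -3.36 and Ttr at -2.04.

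Between striatum and brainstem 5 of 6 members were lower, where 60.2% of all genes tested and 60.9% of those that passed in both tissues were, with a median of -2.65 against -0.31 over those genes. Kl averaged 4.58 ± 2.32 in striatum and 8.73 ± 0.96 in brainstem, a difference of -4.14 (SE 0.47, limma adjusted p = 2.03e-10). Clic6 was the member not called, at 8.65 ± 0.60 in striatum and 8.90 ± 0.60 in brainstem, a difference of -0.25 (SE 0.26, adjusted p = 0.365). Ttr was -1.74 on its brightest probe set and -2.04, -2.04 and -2.29 on the others. Without the C3H HeJ untested 2 array the same 5 were called, with Kl at -4.27, and Clic6 was -0.31 (adjusted p = 0.256). Slc4a5 and Otx2 passed the filter only in brainstem, so a call between tissues was fixed by the filter and only their levels are given. Slc4a5 averaged 2.65 ± 0.46 in hippocampus, 2.78 ± 0.52 in striatum and, for brainstem, 7.30 ± 0.81, below the 40th percentile on 16 hippocampal and 17 striatal arrays. Otx2 averaged 2.70 ± 0.17 in hippocampus, 2.67 ± 0.16 in striatum and, for brainstem, 4.34 ± 0.63, below it on all 18 arrays of either forebrain tissue. Of the calls toward or away from brainstem, 67.4% were lower in striatum as deposited, 55.1% after quantile normalization and 52.8% after median centring, and the 5 members' calls held under both.

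Hippocampus and striatum differed in 2 members, in opposite directions. Kl was 3.16 higher in hippocampus (SE 0.47, limma adjusted p = 1.08e-07), which is 1 of 6 members where 63.3% of all genes tested and 65.1% of those that passed in both tissues were higher, and Clic6 was -2.48 (SE 0.26, adjusted p = 2.94e-11), which is 1 of 6 where 23.8% and 22.8% were lower. The all-gene median of this comparison was 0.24 as deposited, -0.012 after quantile normalization and -0.12 after median centring, and the share of calls that were higher in hippocampus was 72.7%, 49.3% and 40% in that order, while Kl and Clic6 kept their calls and directions. The other 4 members lay between -0.29 and 0.57, with adjusted p of 0.166 or more, and F5 was called on its second probe set (0.76, adjusted p = 0.0392). In the strain by tissue test 0 of 8 members were called where 17.4% of all genes were. Aqp1 came nearest, with an unadjusted limma p of 0.0192 and an adjusted p of 0.0836. It was called without hippocampal C57BL10/J tested (0.0293), striatal BalbC/J tested (0.0494), striatal C57BLKS/J untested 2 (0.0245) or brainstem BalbC/J untested 2 (0.0386). Otx2 (0.0282) and Slc4a5 (0.0431) were called without brainstem C3H HeJ tested. Both passed the filter only in brainstem, and Aqp1 passed the 40th percentile on 4 hippocampal and 3 striatal arrays. With forebrain levels so near the floor, neither these calls nor the misses of these genes can decide whether strain differences differ between tissues.

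Most members tested in a tissue ranked high by likeness to the array-to-array pattern of Ttr. Likeness was the Pearson correlation, over the 18 arrays of a tissue, between a gene's deviations from its strain means and those of Ttr, so all these values share the same 18 arrays, and differences between strain means do not enter. Hippocampal and striatal Folr1, Kl and F5 fell into high and low arrays, so their r mainly shows on which side an array stood. It is printed there beside its rank, serves for ranking only and has no p. In hippocampus Kl had r = 0.92 (7th of 12314 genes), Folr1 0.91 (9th), Clic6 0.91 (11th), F5 0.90 (16th) and Aqp1 0.63 (294th), where the median gene had 0.04. In striatum Kl had 0.82 (8th of 12319), Folr1 0.79 (16th), Clic6 0.69 (52nd), F5 0.69 (56th) and Aqp1 0.62 (114th), where the median gene had 0.05. The striatal Aqp1 value did not pass its exact permutation test (p = 0.128, adjusted 0.134) and was 0.48 without the 2 arrays farthest in Ttr. Slc4a5 and Otx2, below the filter and so unranked, had 0.52 and 0.64 in hippocampus and 0.27 and 0.64 in striatum. In these tissues Otx2 passed the 40th percentile on no array, and Slc4a5 on 2 hippocampal arrays and 1 striatal array. Levels so near the floor cannot decide likeness, so no p is given for these 2 genes there. Aqp1 passed the 40th percentile on only 4 hippocampal and 3 striatal arrays, with medians of 2.31 and 2.30. Its r and rank in these tissues carry the same limit.

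In brainstem, where Ttr itself moved over 0.60 only, the 7 other members had r of 0.72 or more with it. Aqp1 had r = 0.89 (3rd of 12483 genes, Spearman's rho 0.87) and Slc4a5 0.85 (16th, rho 0.86), with exact permutation p of 0.000214 and 0.000879 for r and 0.000407 and 0.00045 for rho, permuting arrays within strains, two-sided. Adjusted over 21 relations, their p for r were 0.00126 and 0.00168 and for rho 0.00135 each. Leaving out the 2 arrays farthest in Ttr gave 0.85 and 0.79. Folr1 and Clic6 had 0.83 each, Kl 0.78, F5 0.78 and Otx2 0.72 (133rd), with adjusted permutation p of 0.00408 or less for r. Their rho lay between 0.76 and 0.88, with adjusted permutation p of 0.0108 or less. Leaving out the 2 arrays farthest in Ttr gave r of 0.76 for Folr1, 0.80 for Clic6, 0.72 for Kl, 0.70 for F5 and 0.735 for Otx2. BalbC/J tested and untested 1 lay below the widest brainstem gaps of Ttr, Folr1, Kl and Slc4a5. The r of these genes with Ttr therefore shows in part on which side those arrays stood. Without the C3H HeJ untested 2 array, a setting chosen after seeing the data, r over the other 17 arrays lay between 0.72 for Otx2 and 0.95 for Slc4a5.

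**Figure D5:**
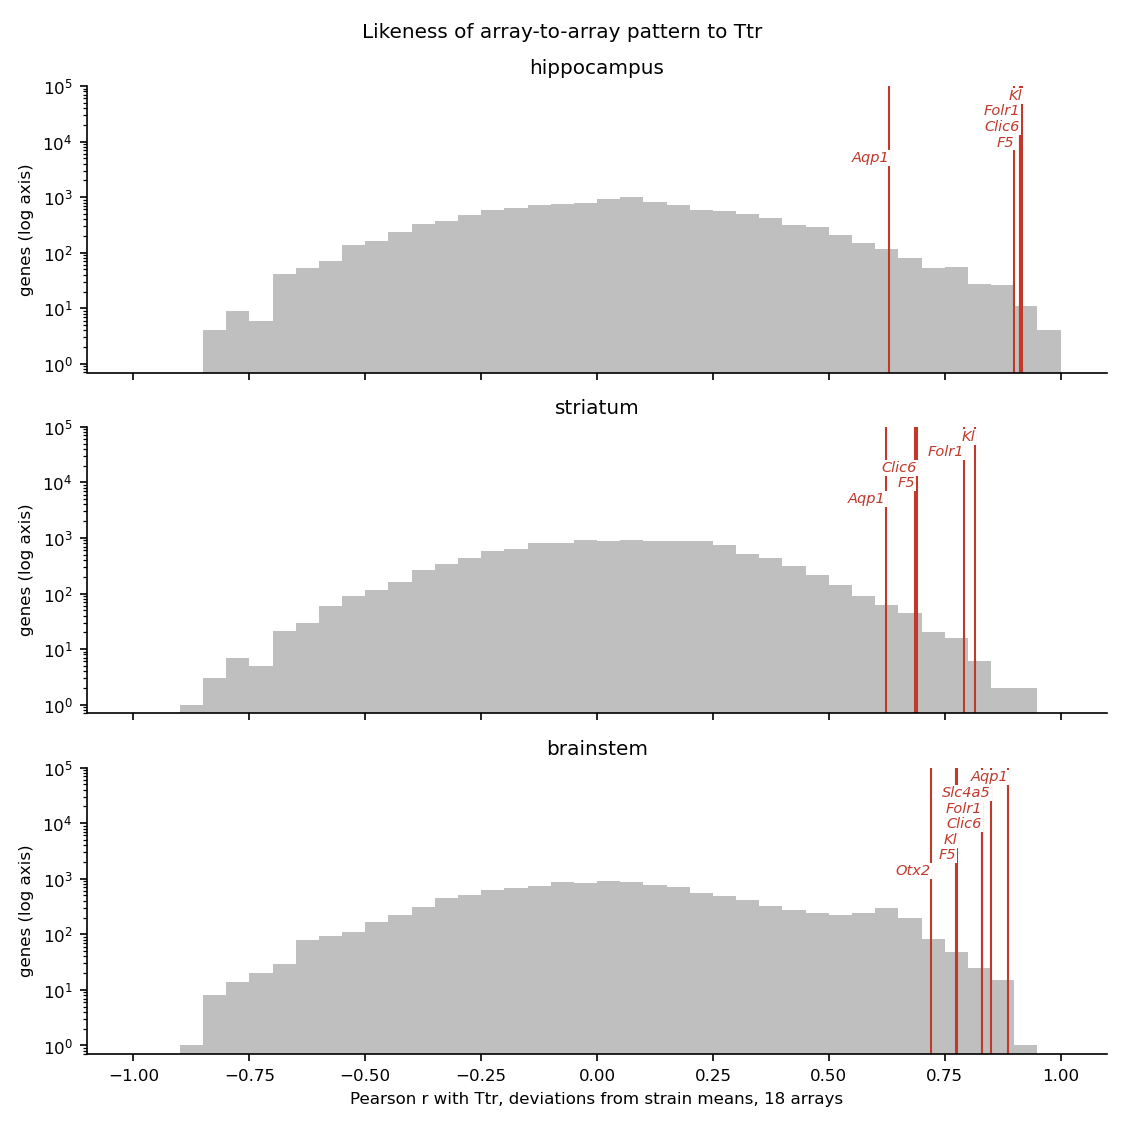
Number of genes (vertical log axis) by Pearson r with Ttr over the 18 arrays of a tissue (horizontal axis), with red lines for the members tested there. Members lie between 0.63 and 0.92 in hippocampus, 0.62 and 0.82 in striatum and 0.72 and 0.89 in brainstem.

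Of the 10 genes outside the members whose pattern was most like Ttr, 4 in hippocampus, 4 in striatum and 3 in brainstem were on a list of further choroid plexus genes. In hippocampus the 10 highest outside the members were Ecrg4 (r = 0.99), Fkbp9, Kcnj13, Calml4, Pcolce, Cpq, Kcne2, Slc31a1, Gpx8 and Cast (r = 0.91). Ecrg4, which encodes a secreted peptide precursor, ranged between 2.91 and 10.47 there, and Kcnj13, an inwardly rectifying potassium channel of the plexus, between 2.11 and 8.08. In striatum they were Slc4a2 (0.94), an anion exchanger, Ecrg4 (0.94), Igfbp2, Sphk2, Bmp6, Kcnj13, Kif16b, Prelp, Igf2 and Phldb2 (0.80). In brainstem they were Perp (0.91), Kcnj13 (0.89), Il1r1, Mastl, Iqcf3, Sostdc1, Car12, Aim2, Ccn1 and Spint2 (0.86). Of these, Il1r1 (3.42 to 3.80), Mastl (4.33 to 4.74), Iqcf3 (3.27 to 3.48), Aim2 (4.47 to 4.80) and Ccn1 (5.78 to 6.01) moved little. An r over 0.8 was reached by 68 genes of the hippocampus, 10 of the striatum and 41 of the brainstem.

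The list of further choroid plexus genes held 38, of which 34 had a probe set. In hippocampus 27 were tested, with a median r with Ttr of 0.84, 18 of them over 0.8. In striatum 24 were tested with a median of 0.57 and 4 over 0.8, and in brainstem 29 with a median of 0.68 and 8 over 0.8. The 6-strain test called 3 of 27 in hippocampus (Tcn2, Slc29a4 and Htr2c), where 31.2% of all genes were called. In striatum it called 3 of 24 (Cab39l, Sulf1 and Igf2), where 26.2% of all genes were. In brainstem, where 23% of all genes were called, it called 6 of 29. Among these 6 were Sulf1 (limma adjusted p = 0.000162), Krt18 (0.00683), Tcn2 (0.01) and Car14 (0.0255). Kcnj13 was also called in brainstem, with strain means spanning 2.01 (adjusted p = 0.0408). Between hippocampus and brainstem 24 of the 27 genes that passed the filter in both tissues were lower, beside 44.8% of all such genes, with a median of -2.04. Between striatum and brainstem 21 of 24 were lower, beside 60.9%, with a median of -2.28. None was called between tested and untested pools in any tissue, with a median of -0.38 in hippocampus, 0.31 in striatum, and -0.27 for brainstem.

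Lists of other cell types and regions were followed in the same way. The ependyma list, the ciliated lining of the ventricles, had a median r with Ttr of 0.66 over 7 genes tested in hippocampus, 0.57 over 9 in striatum and 0.54 over 9 in brainstem. Its mean deviation ran between -0.12 and 0.25 over the hippocampal arrays, where that of the further choroid plexus genes ran between -0.52 and 1.24. The meningeal list had medians of 0.65 over 11 genes in hippocampus, 0.24 over 5 in striatum and 0.16 over 10 in brainstem. Endothelial, oligodendrocyte, thalamic, midbrain, cortical, hippocampal, striatal and brainstem lists had medians between -0.27 and 0.46 in the 3 tissues. Cerebellar genes had a median of 0.41 over 5 in hippocampus, 0.008 over 4 in striatum and -0.34 over 8 in brainstem. None of these lists had a gene with r over 0.8. Whether plexus tissue taken along in dissection makes these patterns was not tested.

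The other probe sets of the members did not all follow the brightest. The second Clic6 probe set ran between 2.07 and 8.91 in hippocampus, where the brightest ran between 4.07 and 7.72. The second F5 probe set ran between 2.69 and 6.18 there, close to the brightest. The second Kl probe set lay between 1.91 and 2.11 on all 54 arrays, above the 40th percentile on none, and showed none of the pattern of the brightest. The dimmest Ttr probe set ran between 8.64 and 15.21 in hippocampus and between 14.27 and 15.57 in brainstem.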

How the data were processed

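The deposited values are log2 expression levels per probe set, made by the authors from array scans. The submitters' processing notes name R 2.6.1, affy 1.16.0, RMA, GCRMA 2.10.0 and limma 2.12.0. Neither the labels nor these notes say which of RMA and GCRMA made the values or whether tissues were normalized apart, so levels between tissues carry that limit. Hybridization batches and scan times were not used here. The precision is limited by the number of arrays.

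The values were used as deposited. Control probe sets were left out, genes were named from the platform annotation where a probe set had 1 symbol, and the brightest probe set stood for a gene. Tests used limma 3.58.1 in R 4.3.3 (lmFit, eBayes with an intensity trend) across all genes passing the filter, with Benjamini-Hochberg adjustment. Within a tissue the 18 arrays were fitted with strain and testing. Across tissues the 54 arrays were fitted with both within tissue and taken as independent, although tissues of a strain share mice. The 5 strain contrasts were adjusted jointly. The fit was tested on simulated data. Spread in these tests is that between pools of mice.

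The genes named are all members, the 10 genes per tissue most like Ttr, up to 4 members of each further list by the smallest 6-strain p in the tissue described, and the members' other probe sets. Members and lists were chosen with earlier results of these data known. Alternatives were other scalings, filters and probe sets, no intensity trend, no testing term, a replicate block and leaving out each array.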

Additional observations from a re-analysis of the deposited data

How the results depend on the processing

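Among the counts over all genes, the strain differences against C57BL6/J in hippocampus moved most with a setting, to 3587 after median centring in place of 5509. Leaving out 1 array at a time gave in the 6-strain test 3152 to 4335 genes for hippocampus, 2307 to 4223 for striatum and 2202 to 4701 for brainstem, the highest without C3H HeJ untested 2. Strain pairs against C57BL6/J ranged from 3366 (without C57BL6/J untested 2) to 6120 in hippocampus, from 1979 (without C57BL6/J untested 1, with 2012 without untested 2) to 4977 in striatum, and from 2579 (without C57BL6/J untested 1, with 2966 without tested and 2908 without untested 2) to 9394 (without C3H HeJ untested 2) in brainstem. Tested against untested pools gave 0 to 0 throughout. Tissue counts ranged from 11316 to 11639 for hippocampus against striatum, 11190 to 11539 for hippocampus against brainstem and 11719 to 11830 for striatum against brainstem, and strain by tissue from 1869 to 3436. Of the members' results, Otx2 reversed between hippocampus and striatum, to -0.33 after median centring (limma adjusted p = 0.00515) in place of 0.03, and Slc4a5 was called there (-0.49, adjusted p = 0.011). Both are below the filter in both tissues. Strain differences against C57BL6/J that passed the test only with 1 array left out were those of Aqp1 in C57BL10/J hippocampus and C57BLKS/J striatum and of Aqp1, F5, Kl and Ttr in BalbC/J brainstem, with adjusted p between 0.0121 and 0.0476. The hippocampal and striatal Aqp1 calls rest on arrays through which Aqp1 passed the filter, and cannot decide a strain difference. Kl between hippocampus and brainstem kept its call without hippocampal C3H HeJ tested, BalbC/J untested 1, C57BL10/J untested 1 or 2, C57BLKS/J untested 2 or C57BL6/J untested 2, without 9 striatal arrays, and without brainstem C3H HeJ untested 2, BalbC/J untested 1 or C57BL10/J tested, and lost it without each other array (adjusted p 0.0145 to 0.0989). With the replicate number as a block, the 6-strain counts were 3607 for hippocampus, 3013 for striatum and 2667 for brainstem. F5 in brainstem lost its call (limma adjusted p = 0.0632). Between tissues the block was instead the strain, testing and number together, which matched arrays across tissues. The labels do not say that arrays so matched hold the same mice. Under that block Kl between hippocampus and brainstem lost its call (limma adjusted p = 0.0534). Same-numbered arrays of different strains within a tissue had a median correlation of -0.035, -0.015 and -0.02 over 45 pairs in hippocampus, striatum and brainstem. The correlations ran from -0.39 to 0.352, -0.62 to 0.462 and -0.278 to 0.256, with 16, 14 and 9 pairs over 0.1. Such medians cannot exclude pairing in part of the strains, and pairing between tissues was not tested this way. The causes of these changes were not tested.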

Other observations

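Arrays with the same strain, testing and number in different tissues were set side by side, although the labels do not say that they hold the same mice. Over 18 such pairs, the deviations of Ttr from its strain means in striatum and brainstem had Pearson's r of -0.64 (permutation p = 0.00607, adjusted over 9 relations 0.0282) and Spearman's rho of -0.67 (permutation p = 0.00814, adjusted 0.0367). Without the 2 arrays farthest from the median r was -0.72. The brainstem probe set of Ttr lies near the top of the scale. Striatal Ttr had 8 arrays at 13.75 or below and 10 at 15.04 or above, so its r there also shows in part on which side an array stood. For hippocampus and striatum r was -0.21 (permutation p = 0.525, adjusted 0.655; rho -0.13, adjusted 0.665) and for hippocampus and brainstem 0.23 (permutation p = 0.396, adjusted 0.595; rho 0.37, adjusted 0.332). Folr1 and Kl, the genes of the other 6 relations, fall into high and low arrays in hippocampus and striatum, so their r is not given.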
